A study of Homo sapiens with 2 samples.

Results

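The genes described here belong to the regulated secretory pathway. They are 6 genes of prohormone processing (CPE, CPD, PAM, PCSK1, PCSK5 and SCG5) and 4 of the synaptotagmin family (SYT1, SYT11, SYT13 and SYTL2), and every probe set that the platform annotation gives to these 10 genes alone was taken. The annotation gave 24 probe sets to 9 of the genes, out of 54613 probe sets other than controls and 19775 genes. PCSK1, the convertase that makes the first cuts in many prohormones, was not analysed here. The genes were picked with their signals in both cell populations known, so their differences are given as a description.

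The cells came from KYSE-140, a long-established cell line grown from a human squamous carcinoma of the esophagus, separated by flow cytometry into cells that displayed CD90 on their surface and cells that did not. CD90 is a small glycoprotein encoded by THY1 and carried by fibroblasts, neurons and some tumour cells. The CD90+ group is 1 RNA sample on 1 Affymetrix array and the CD90- group is 1 RNA sample on 1 array. Both come from the same line and differ, as far as the labels say, in CD90 alone, so each group is 1 sort of 1 line. The arrays ask which transcripts set the CD90+ fraction apart.

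Cells with a regulated secretory pathway store peptides in dense-core granules and release them when calcium enters the cell. Within the granule a prohormone is cut after basic residues by proprotein convertases, carboxypeptidase E removes the basic residues left at the new end, and peptidylglycine alpha-amidating monooxygenase converts a terminal glycine to an amide. Synaptotagmins carry paired C2 domains, and in several of them these bind calcium and membrane and help the granule fuse. Squamous epithelium is not a classical tissue of this pathway, although convertases and carboxypeptidases also serve constitutive secretion.

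Among the genes at least 2-fold higher in CD90+ cells, CPE and PCSK5 have a promoter in the RefSeq promoter table, which matched 8 of the 10 genes. Both are shown because they belong to the same processing chain and were higher in the same fraction. Each window runs from 250 bases before to 50 bases after the annotated start (GRCh38.p14, plus strand, 5′ to 3′). Capitals mark E-boxes (CANNTG, which reads the same on both strands) and GC boxes (GGGCGG, searched on both strands), and the marked motifs do not overlap.
CPE, chr4:165378758-165379057: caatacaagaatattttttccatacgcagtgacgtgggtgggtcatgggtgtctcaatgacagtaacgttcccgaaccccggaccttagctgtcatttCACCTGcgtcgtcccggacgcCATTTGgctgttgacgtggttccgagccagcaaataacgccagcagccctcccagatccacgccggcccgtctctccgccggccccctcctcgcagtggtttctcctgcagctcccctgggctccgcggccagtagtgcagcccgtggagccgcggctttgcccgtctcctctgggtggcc
PCSK5, chr9:75890423-75890722: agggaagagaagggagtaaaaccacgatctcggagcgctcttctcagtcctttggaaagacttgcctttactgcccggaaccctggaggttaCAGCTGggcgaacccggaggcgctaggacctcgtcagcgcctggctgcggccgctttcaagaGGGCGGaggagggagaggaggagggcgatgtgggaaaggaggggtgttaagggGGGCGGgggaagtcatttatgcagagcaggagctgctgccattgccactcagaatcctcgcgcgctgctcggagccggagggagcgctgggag
The CPE window holds 2 E-boxes and 0 GC boxes, and the PCSK5 window holds 1 E-box and 2 GC boxes. E-boxes occur in 68.7% and GC boxes in 44.9% of the 34796 distinct promoter windows of this length, so both are common. Another 4 motifs were searched on both strands and are in neither window: TGANTCA (AP-1, in 7.72% of windows), TGACGTCA (the cAMP response element, 1.84%), CCGGAAGT (an ETS site, 4.13%) and TATAAA (the TATA box, 11.6%). The CPE window holds 24 CpG pairs and the PCSK5 window 20, against a median of 14 over all windows. Fewer CpG pairs were held by 66.1% of windows than by that of CPE, and by 58.9% than by that of PCSK5. A match of letters is a description and not a binding site.

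Signals are MAS5 intensities, in which the mismatch probes of a probe set are used to correct its perfect-match probes. The median signal was 72.1 on the CD90+ array and 71.1 on the CD90- array, and 71.6, the geometric mean of both, served as a floor to which lower signals were raised before a ratio was taken. A probe set was called measured if it reached the floor on at least 1 array, and a fold with 1 side under the floor is a lower bound, written "at least". No sort was repeated, so no value carries a replicate error and no test between the populations was possible. The number of arrays limits the precision. Where a gene had several probe sets that both arrays read above the floor, their log2 ratios differed with a pooled SD of 0.28 (5490 genes), a spread between probe sets that says nothing of how repeated sorts would vary. THY1 read 293, 244 and 517 in CD90+ cells against 78.9, 49.6 and 35.5 in CD90- cells on its 3 probe sets, higher in the fraction sorted for CD90. Of 14 squamous markers 11 were given a probe set, and KRT6A, KRT17 and TP63 were not analysed. All 11 were measured and 0 differed by 2-fold, with the basal keratin KRT5 at 19357 in CD90+ and 19208 in CD90- cells.

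**Figure D1:**
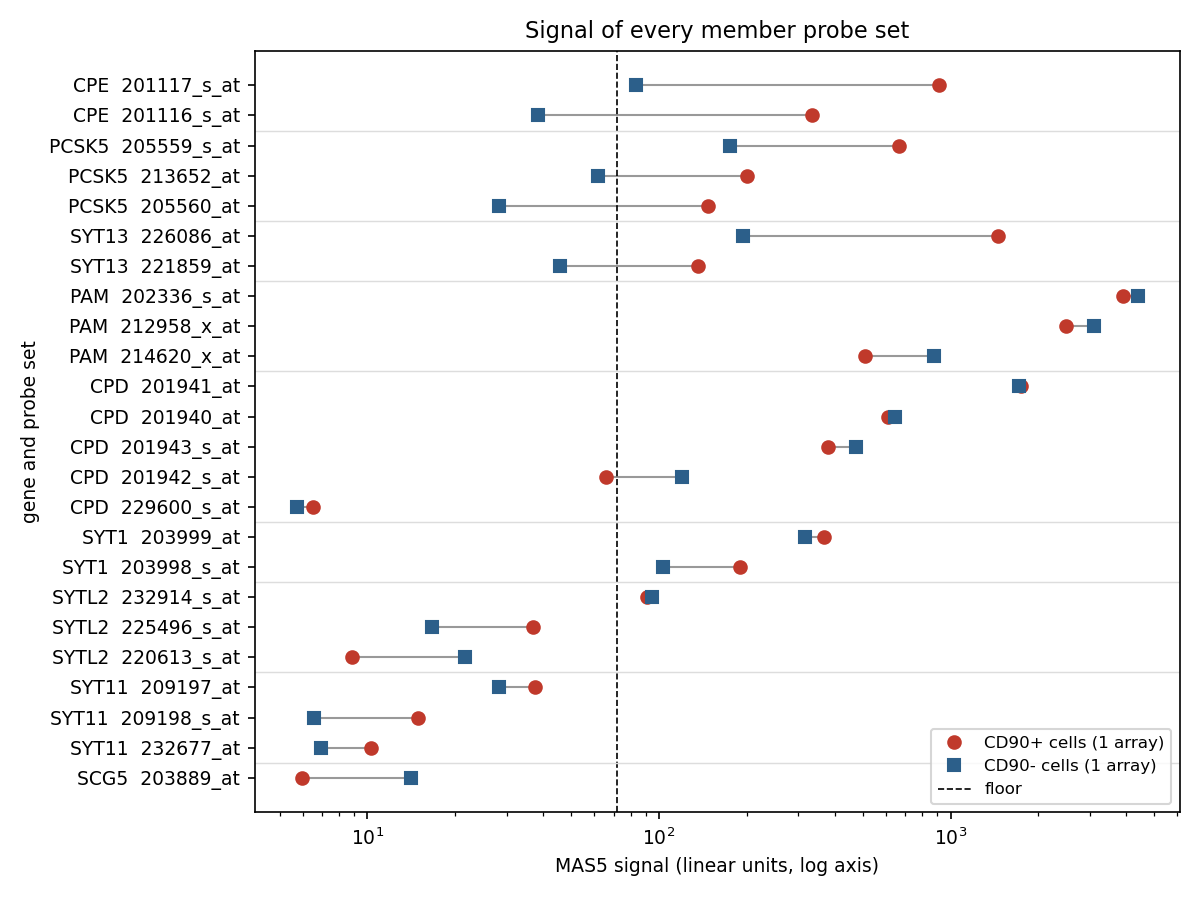
MAS5 signal on a log axis of all 24 probe sets of the 9 genes, with CD90+ cells as red circles and CD90- cells as blue squares, 1 array each. The dashed line is the floor of 71.6. All 7 probe sets of CPE, PCSK5 and SYT13 lie to the right in CD90+ cells, all 3 of PAM lie to the left, and those of SYT11 and SCG5 lie under the floor in both.

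CPE, the carboxypeptidase that trims prohormones in the granule, had the largest difference of the processing genes. Its brighter probe set, 201117_s_at, read 913 in CD90+ cells and 83.2 in CD90- cells, 11.0-fold higher (log2 ratio 3.46). The other, 201116_s_at, read 336 in CD90+ cells and 38.5 in CD90- cells, at least 4.69-fold higher. CD90+ cells were thus well above the floor on both probe sets, while CD90- cells were just above it on one and under it on the other, so the size of the fold rests on a dim CD90- value. These are bulk RNA samples, in which more cells with the transcript and more transcript per cell cannot be told apart. Both probe sets belong to the _s_at class, which can match several transcripts.

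CPD, a carboxypeptidase of related activity that cycles through the trans-Golgi network in most cell types, was nearly equal in the fractions. Its brightest probe set, 201941_at, read 1738 in CD90+ cells and 1716 in CD90- cells, a log2 ratio of 0.02, and 201940_at read 608 in CD90+ and 642 in CD90- cells. The dimmer 201943_s_at read 381 in CD90+ cells and 475 in CD90- cells, 1.25-fold lower, and 201942_s_at read 65.7 in CD90+ and 120 in CD90- cells, at least 1.68-fold lower. Of the 4 measured probe sets of CPD 3 had the lower value in CD90+ cells, and the bound of 201942_s_at sets no upper limit. The fifth, 229600_s_at, read 6.51 in CD90+ and 5.72 in CD90- cells, under the floor on both.

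PCSK5, a proprotein convertase that exists as a soluble granule form and a membrane form of the Golgi, was higher in CD90+ cells on each of its 3 probe sets. The brightest, 205559_s_at, read 666 in CD90+ cells and 175 in CD90- cells, 3.80-fold higher (log2 ratio 1.93). Probe set 213652_at read 200 in CD90+ and 61.6 in CD90- cells, at least 2.80-fold higher. Probe set 205560_at read 147 in CD90+ and 28.3 in CD90- cells, at least 2.06-fold higher. All 3 passed 2-fold, but on the dimmer pair the CD90- signal was under the floor. Of the 2847 genes with at least 3 measured probe sets, PCSK5 was 1 of 11 (0.386%) with every one of them at least 2-fold higher. PCSK5 was picked with these values known, so nothing is read from that share.

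PAM, the enzyme that amidates the C-terminus of peptides, was bright in both fractions and had the lower value in CD90+ cells on all 3 probe sets. Its brightest probe set, 202336_s_at, read 3901 in CD90+ cells and 4382 in CD90- cells, a log2 ratio of -0.17. The remaining pair are of the _x_at class, whose probes can also bind transcripts of other genes: 212958_x_at read 2495 in CD90+ and 3109 in CD90- cells, 1.25-fold lower, and 214620_x_at read 507 in CD90+ and 875 in CD90- cells, 1.72-fold lower. SCG5 encodes 7B2, the chaperone of the convertase PCSK2. Its probe set read 5.94 in CD90+ and 14.2 in CD90- cells, under the floor on both, so no ratio is given.

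SYT13, an atypical synaptotagmin whose C2 domains lack the residues that bind calcium, had the largest difference of the synaptotagmins. Probe set 226086_at read 1457 in CD90+ cells and 194 in CD90- cells, 7.50-fold higher (log2 ratio 2.91), with both arrays above the floor. Probe set 221859_at read 136 in CD90+ cells and 45.6 in CD90- cells, at least 1.90-fold higher, the CD90- side being under the floor. Both probe sets had the higher value in CD90+ cells, and the brighter passed 2-fold.

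The remaining synaptotagmin genes differed by less than 2-fold or were not measured. SYT1, the calcium sensor of fast transmitter release, read 368 in CD90+ cells and 316 in CD90- cells on 203999_at, a log2 ratio of 0.22. On 203998_s_at it read 189 in CD90+ and 103 in CD90- cells, 1.83-fold higher, so its probe sets share a direction and differ in size. SYTL2, a synaptotagmin-like protein that tethers granules through RAB27, read 91.1 in CD90+ and 94.3 in CD90- cells on its 1 measured probe set, 232914_s_at. Its other pair read 37.0 and 8.84 in CD90+ cells against 16.7 and 21.6 in CD90- cells, under the floor and in opposite directions. SYT11, a synaptotagmin that does not bind calcium, read at most 37.5 in CD90+ and 28.2 in CD90- cells over 3 probe sets, all under the floor.

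**Figure D2:**
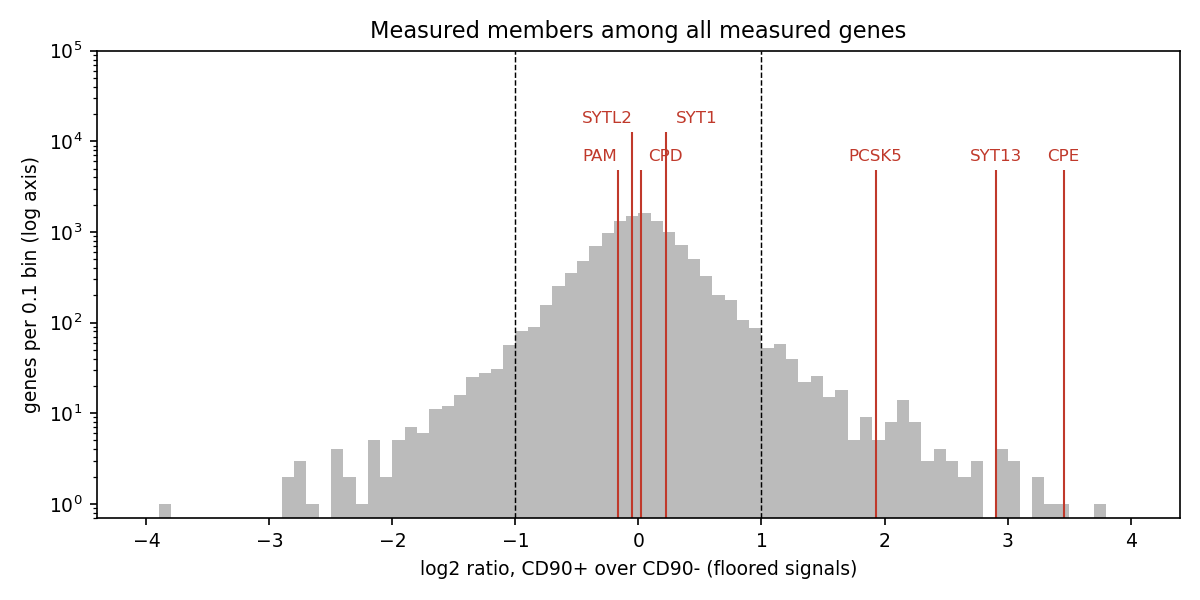
Number of genes (log axis) by log2 ratio, CD90+ over CD90-, for the 12466 measured genes in grey, with the 7 measured genes of secretion as red lines and dashed lines at 2-fold. PCSK5, SYT13 and CPE stand in the right tail, and PAM, SYTL2, CPD and SYT1 in the centre.

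Taking for each gene its brightest probe set outside the _x_at class, 7 of the 9 genes were measured. In CD90+ cells 3 of these were higher by 2-fold or more and 0 were lower by as much, beside 2.47% higher and 1.75% lower among all 12466 measured genes. The genes were chosen on these values, so nothing is read from the excess. By rank of the ratio from the highest, CPE stood at 2, SYT13 at 12 and PCSK5 at 61 of 12466. The other 4 had log2 ratios from -0.17 to 0.22, inside the 5th to 95th percentile of all measured genes, -0.66 to 0.73. Of the 17 measured probe sets, 6 were higher by 2-fold or more and 0 lower by as much, beside 1.90% and 1.56% of all 29097 measured probe sets.

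The genes lie on different chromosomes, except that SYT13 and SYTL2 share chromosome 11 and PAM and PCSK1 chromosome 5. The ratios of neighbouring genes were compared because a gain or loss of a chromosome segment shifts neighbours together. Neighbours were the 50 nearest genes on the chromosome that reached the floor on both arrays. Their median log2 ratio was 0.0055 around CPE on chromosome 4, 0.10 around SYT13 and -0.24 around PCSK5 on chromosome 9. PCSK5 was higher in CD90+ cells while the median of its neighbours was lower, and its log2 ratio minus theirs was 2.17. For CPE that difference was 3.45 and for SYT13 2.80. Whether a gain or loss of a segment had a part in the ratios of these genes was not tested.

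The rest of the pathway was described through 7 lists of 139 genes, 130 of them with a probe set and 80 measured. In CD90+ cells 0 of the 80 were counted as higher by 2-fold or more and 6 (7.50%) as lower by as much, beside 2.47% and 1.75% of all measured genes. Of the others, 62 lay within 2-fold with both sides above the floor, and 12 had a side under the floor and so only a lower bound, which was under 2-fold. The lists were chosen with earlier results of these data known, so nothing is read from the shares past 2-fold. The median log2 ratio of the 80 was -0.0045, against 0.01 over all measured genes. These counts rest on the floor: with it at the 25th percentile of signals, 17.2, 7 were higher and 11 lower, and without a floor 3 were higher and 9 lower. Under the 25th percentile floor 17225 genes in all were measured, against 12466, so its counts can include list genes outside the 80. The share of all genes past 2-fold was not taken at either setting, so these counts have no background beside them.

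Among the granins and other granule constituents, SCG2 and CADPS2 were lower in CD90+ cells. SCG2, or secretogranin II, a granin that helps form dense-core granules, read 4894 in CD90+ and 13780 in CD90- cells, 2.82-fold lower. CHGB, or chromogranin B, read 2867 in CD90+ and 5702 in CD90- cells, 1.99-fold lower and so just short of 2-fold; it was singled out after its values were seen. CADPS2, which primes granules for release, read 50.8 in CD90+ and 206 in CD90- cells, at least 2.87-fold lower. Chromogranin A (CHGA) and SCG3 stayed under the floor on both arrays. Of the 15 genes in this list 7 were measured: 2 lower, 0 counted as higher, 4 within 2-fold and 1, PCSK1N, an inhibitor of PCSK1, with a bound only (87.9 in CD90+ and 18.3 in CD90- cells, at least 1.23-fold higher). The median log2 ratio was 0.19, and turned to -0.40 when probe sets shared between transcripts or genes were left out.

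Of the peptide precursors, on which the processing enzymes act, NTS and BDNF were lower in CD90+ cells. NTS, the precursor of neurotensin, read 3639 in CD90+ and 11134 in CD90- cells, 3.06-fold lower. BDNF, a neurotrophin precursor cut by convertases, read 55.6 in CD90+ and 147 in CD90- cells, at least 2.06-fold lower, and at least 1.34-fold lower on a second probe set. Of 29 precursors with a probe set 11 were measured: 2 lower, 0 counted as higher, 5 within 2-fold and 4 with bounds under 2-fold. The median log2 ratio was -0.05, and ran from -0.47 with a floor at the 25th percentile to 0.49 with one at the 75th. Bright precursors between the thresholds, singled out afterwards, were GAL, the galanin precursor, at 10590 in CD90+ and 7533 in CD90- cells, ADM, for adrenomedullin, at 3647 in CD90+ and 2310 in CD90- cells, and EDN1, for endothelin 1, at 1405 in CD90+ and 778 in CD90- cells. Insulin, glucagon, somatostatin, POMC and VIP precursors were under the floor on both arrays.

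Among the other synaptotagmins and their C2-domain relatives 13 of 24 with a probe set were measured; 9 lay within 2-fold, 3 had bounds under 2-fold, 0 were counted as higher and 1 was lower, and the median log2 ratio was 0.03. The lower one was SYTL5, a RAB27 effector, at 1997 in CD90+ and 4142 in CD90- cells, 2.07-fold lower. In the list of secretory Rab GTPases and their effectors 16 of 23 were measured; 14 lay within 2-fold, 1 had a bound under 2-fold, 0 were counted as higher and 1 was lower, and the median log2 ratio was -0.05. The lower one was RAB3B, a GTPase of secretory vesicles, at 193 in CD90+ and 412 in CD90- cells, 2.14-fold lower on its brightest probe set. On 239202_at it read 104 in CD90+ and 143 in CD90- cells, and on 205924_at 13.8 in CD90+ and 72.4 in CD90- cells, the CD90+ side being under the floor. Its other pair was under the floor on both arrays and brighter in CD90+ cells. There 205925_s_at read 61.1 in CD90+ and 37.4 in CD90- cells, and 242629_at 46.9 in CD90+ and 28.4 in CD90- cells. RAB27A, which recruits the synaptotagmin-like proteins and was singled out afterwards, read 1655 in CD90+ and 1011 in CD90- cells, 1.64-fold higher. That probe set had the highest ratio of the 5 measured for RAB27A, whose log2 ratios ran from -0.005 to 0.71.

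Of the exocytic SNARE list 26 of 29 genes with a probe set were measured; 25 were within 2-fold with both sides above the floor and 1 had a bound under 2-fold, and the median log2 ratio was 0.01. VAMP7, a vesicle SNARE, read 5590 in CD90+ and 4873 in CD90- cells, and VAMP3, a vesicle SNARE of recycling endosomes, read 5427 in CD90+ and 5080 in CD90- cells. All 5 other convertases and site-specific proteases were within 2-fold, with a median of -0.08. MBTPS1, the site-1 protease, read 824 in CD90+ and 706 in CD90- cells, and PCSK7 read 244 in CD90+ and 234 in CD90- cells. FURIN, the convertase of constitutive secretion and singled out afterwards, read 189 in CD90+ and 200 in CD90- cells. Of the other carboxypeptidases 2 of 5 were measured, CPXM2 at 92.4 in CD90+ and 70.5 in CD90- cells, and CPM at 73.9 in CD90+ and 10.4 in CD90- cells. In both genes the CD90- value was under the floor, so the floored ratios are lower bounds (1.29-fold for CPXM2 and 1.03-fold for CPM) and set no upper limit. The list's median log2 ratio was 0.21, and 1.61 without a floor.

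**Figure D3:**
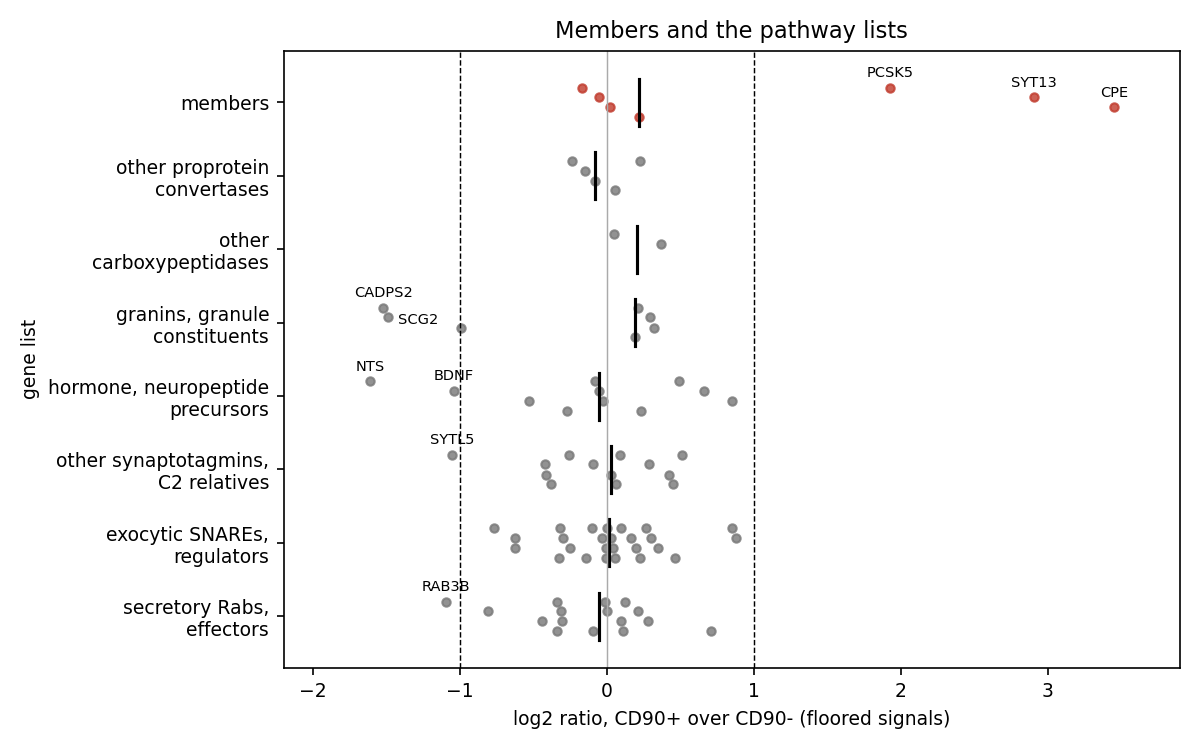
Log2 ratio, CD90+ over CD90-, of the 7 measured genes described here (red, top row) and of the measured genes of 7 pathway lists (grey), with a black bar at each median and dashed lines at 2-fold. For 12 of the grey points that lie between the lines 1 side was under the floor, so they are bounds. CPE, SYT13 and PCSK5 lie to the right of the upper line, and the genes named to the left of the lower line are SCG2, CADPS2, NTS, BDNF, SYTL5 and RAB3B.

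Markers of cell types that use this pathway were compared in the same samples. Of 14 neuroendocrine markers with a probe set 5 were measured, with 0 counted as higher by 2-fold and 1, SCG2, lower by that much. The summed signal of all 14 was 26078 in CD90+ and 37443 in CD90- cells. Of the defining ones, NCAM1 read 34.8 in CD90+ and 43.6 in CD90- cells and CHGA 3.27 in CD90+ and 1.62 in CD90- cells, and synaptophysin (SYP) was under the floor on both arrays too. UCHL1 was equal, at 17099 in CD90+ and 17109 in CD90- cells. ENO2 read 1074 in CD90+ and 627 in CD90- cells, 1.71-fold higher. INSM1 read 36.2 in CD90+ and 83.1 in CD90- cells, at least 1.16-fold lower. The summed signals differed mainly through SCG2 and CHGB, whose values are given above. Of 13 neuronal markers 5 were measured and 0 differed by 2-fold, with a summed signal of 24582 in CD90+ and 27954 in CD90- cells. On the probe sets used, GAP43 (1296 in CD90+ and 801 in CD90- cells) and TUBB3 (11717 and 10094) were higher in CD90+ cells. NEFL (9194 in CD90+ and 14436 in CD90- cells), MAP2 (2115 and 2330) and SNAP25 (98.8 and 122) were lower. RBFOX3, at 11.4 in CD90+ and 8.14 in CD90- cells, was under the floor on both arrays. Of 9 fibroblast markers 2 were measured and 0 differed by 2-fold on the probe set that stood for the gene. The list's summed signal was 2421 in CD90+ and 1479 in CD90- cells, mostly of COL1A1. COL1A1 read 2125 in CD90+ and 1240 in CD90- cells, and its 3 measured probe sets had log2 ratios from 0.69 to 1.01. PDGFRA read 107 in both. The rest were under the floor on both arrays. Of these, COL1A2 (47.5 in CD90+ and 20.9 in CD90- cells), COL3A1 (33.8 and 4.66), FAP, LUM and POSTN were brighter in CD90+ cells. DCN (24.0 in CD90+ and 47.3 in CD90- cells) and PDGFRB were brighter in CD90- cells. Of 5 leukocyte and 5 endothelial markers 1 each was measured, with a CD90- value under the floor and a bound under 2-fold. The summed signal was 116 in CD90+ and 144 in CD90- cells for the leukocyte list, and 205 in CD90+ and 107 in CD90- cells for the endothelial list. Whether other cell types had a part in the differences of CPE, SYT13 and PCSK5 was not tested.

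**Figure D4:**
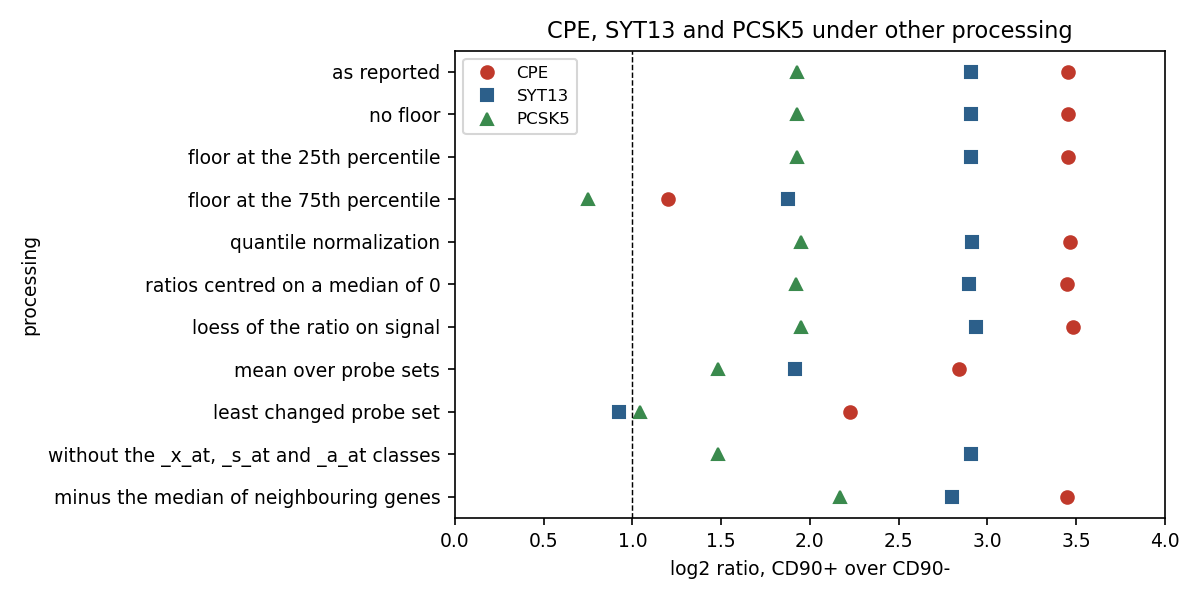
Log2 ratio, CD90+ over CD90-, of CPE (circles), SYT13 (squares) and PCSK5 (triangles) as reported and under 10 other ways of processing, with a dashed line at 2-fold. CPE stays right of the line wherever it has a value. SYT13 falls to a lower bound of 0.93 by its least changed probe set, and PCSK5 to one of 0.75 under the 75th percentile floor.

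The differences of CPE, SYT13 and PCSK5 depended little on scaling and more on the floor and the probe set. When the floor was raised to the 75th percentile (397), the bounds were a log2 ratio of 1.20 for CPE, 1.88 for SYT13 and 0.75 for PCSK5, the last under 2-fold. By the least changed probe set the bounds were 2.23, 0.93 and 1.04, that of SYT13 then being under 2-fold. A bound under 2-fold sets no upper limit.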

How the data were processed

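Total RNA of CD90+ and CD90- KYSE-140 cells was measured on 1 array each. MAS5 was the authors' summarisation tool, per the submitters' processing notes, and neither its version nor its options are known here. The deposited intensities are linear, and their 2 to 98% trimmed mean was 499.9 on both arrays. Detection calls were not used here.

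Names came from the platform annotation where it gave a probe set 1 symbol (41091), updated by gene identifier to RefSeq GRCh38.p14. Signals under the floor of 71.6 were set to it and a log2 ratio, CD90+ over CD90-, was taken. A gene was represented by its probe set with the highest mean log2 signal, the _x_at class only where it had no other. Genes were counted at 2-fold, with no test. The procedure was tested on simulated data with an assumed noise, in which only genes well above the floor were given a difference. That test says nothing of how repeated sorts would vary. The genes, lists and thresholds were chosen with earlier results of these data known. Named were all probe sets of the 10 genes, THY1, in each list up to 4 genes per direction past 2-fold or, failing that, the 2 brightest, and defining markers. Python 3.11.15, numpy 2.4.6, pandas 2.3.3, statsmodels 0.14.6 and matplotlib 3.10.9 were used.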

Additional observations from a re-analysis of the deposited data

How the results depend on the processing

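With 10 alternatives, 3 of the secretion genes stayed at least 2-fold higher in CD90+ cells, except that the count was 2 for the 75th percentile floor, for each gene's least changed probe set, and without the _x_at, _s_at and _a_at classes, where CPE has no value; 0 were at least 2-fold lower under each. Log2 ratios ranged from 1.20 to 3.48 for CPE, 0.93 to 2.94 for SYT13 and 0.75 to 2.17 for PCSK5. Each low end is a lower bound, because the CD90- side was under the floor in use. The counts of 2 under the 75th percentile floor and by the least changed probe set thus do not place a gene under 2-fold. By the mean of probe sets, bounds included, the log2 ratios were 2.84, 1.92 and 1.48. The 75th percentile floor left SYT1 and SYTL2 unmeasured. Of the pathway list genes, none at least 2-fold higher became 7 under the 25th percentile floor and 3 without a floor, where ratios of dim probe sets are kept. The 6 at least 2-fold lower became 11 under the 25th percentile floor, 3 under the 75th and 9 without a floor. In all, 17225 genes were measured under the 25th percentile floor and 8118 under the 75th, against 12466. The share of all genes past 2-fold was not taken under these alternatives. No paired analysis was possible because each population has 1 array. Leaving out a sample was not possible for the same reason. List medians moved by more than 0.28, the spread between probe sets, for granins (-0.99 under the 75th percentile floor and -0.40 without the shared classes, against 0.19), precursors (-0.47 under the 25th and 0.49 under the 75th, against -0.05), convertases (0.22 under the 75th, against -0.08) and carboxypeptidases (1.61 without a floor, against 0.21). Dim signals limit CPE, SYT13 and PCSK5, whose CD90- values lie near or under the floor on some probe sets.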
